A study of Mus musculus with 71 samples.

Results

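The hippocampal response to object recognition memory (ORM) training was examined in time-restricted mice by comparing 6 mice taken 1 h after training (ORM+1 h) with 6 mice taken from their home cage at zeitgeber time (zt) 3 (HC zt3). These 12 mice are part of 71 mice with deposited counts, and they were chosen by diet, task and time, not by any measured value. Of 57010 genes in the count table, the 30141 with at least 10 counts in total over all mice were tested, whichever way they moved. All animals were male wild-type C57BL/6J mice housed in groups of 6 per cage, and the sources used here do not say whether the mice of a group shared a cage. From weaning on, both groups ate food rich in fat and sucrose (HFS), without restriction at first and then, in the last weeks, with access limited mainly to the dark phase (time-restricted feeding, TRF). The trained mice explored the objects for 10 min in the early light phase, so a difference from the home cage mice covers handling, the arena and the objects together with learning. The labels give zt3 for both groups. Training was spread over part of the early light phase and the trained mice were taken 1 h after it. They may thus have been taken later in the day than the home cage mice, and such a shift would be included as well.

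The RNA was purified with an antibody to phosphorylated ribosomal protein S6 (pS6-TRAP), a mark that neurons and other cells place on ribosomes when they are active. No transgene or Cre line selects a cell type in this method, so ribosome-bound mRNA of neurons, glia and vessels is recovered together. More mRNA per cell, more phosphorylated ribosomes and more cells of a type cannot be told apart in such bulk samples, and for a gene that is lower, fewer cells and less RNA per cell cannot be told apart either.

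Exploration of an unfamiliar place is known to open a short wave of transcription in the hippocampus. Calcium entry and the MAPK pathway first activate factors already present, such as CREB and SRF, which switch on immediate early transcription factors of the FOS, EGR and NR4A families together with effectors such as Arc. Astrocytes take up the glutamate that neurons release, convert it to glutamine and are coupled to each other by connexins, while microglia, the resident macrophages of the brain, are known for surveying synapses.

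Libraries held 50094958 to 62758570 counts in the HC zt3 mice and 47333105 to 59738764 in the ORM+1 h mice. The neuron markers Camk2a, a synaptic kinase subunit, and Snap25, a vesicle fusion protein, had 3793 to 5485 and 3701 to 4453 CPM over the 12 mice (counts per 1000000 counts of TMM-scaled library size), as tissue rich in neurons would. The choroid plexus marker list, led by Ttr, ranged from a summed 136 to 7736 CPM among the home cage mice and from 159 to 7200 CPM among the trained mice, so single mice of both groups differed strongly in these markers. Home cage mice 5 and 6 had summed astrocyte marker levels of 2537 and 2475 CPM, against 978 to 1326 CPM in the other 4, and results that rest on them are given without them as well.

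At 1 h after training, 864 genes passed an adjusted p of 0.05 (edgeR, quasi-likelihood, Benjamini-Hochberg over all genes tested), which is 2.87% of those tested. Of these, 676 rose (2.24%) and 188 fell (0.624%). Leaving out single mice moved these counts: the rising genes numbered 407 without home cage mouse 3 and 450 without home cage mouse 4. These models keep the dispersion of the full fit, which is its modelled spread between mice, so the mouse left out still enters it. They also hold 1 mouse fewer, so a lower count is not the influence of that mouse alone. The falling genes numbered 122, 118 and 100 without home cage mouse 1, 3 or 4, and 95 and 83 without trained mouse 2 or 3. The median log2 fold change was 0.58 among the genes that rose and -0.40 among those that fell, against -0.01 over all genes tested. A change above 1 on the log2 scale was reached by 152 of the genes that rose, and a change below -1 by 5 of the genes that fell. Changes above 2 were reached by 5 rising genes and a change below -2 by 1 falling gene. Protein-coding genes made up 642 of the rising and 157 of the falling genes, and long noncoding RNAs 24 and 26. In 427 of the rising and 139 of the falling genes, all 6 trained mice lay on one side of all 6 home cage mice. Such a separation was seen in 2.14% of all genes tested on the higher side and in 1.38% on the lower side.

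**Figure D1:**
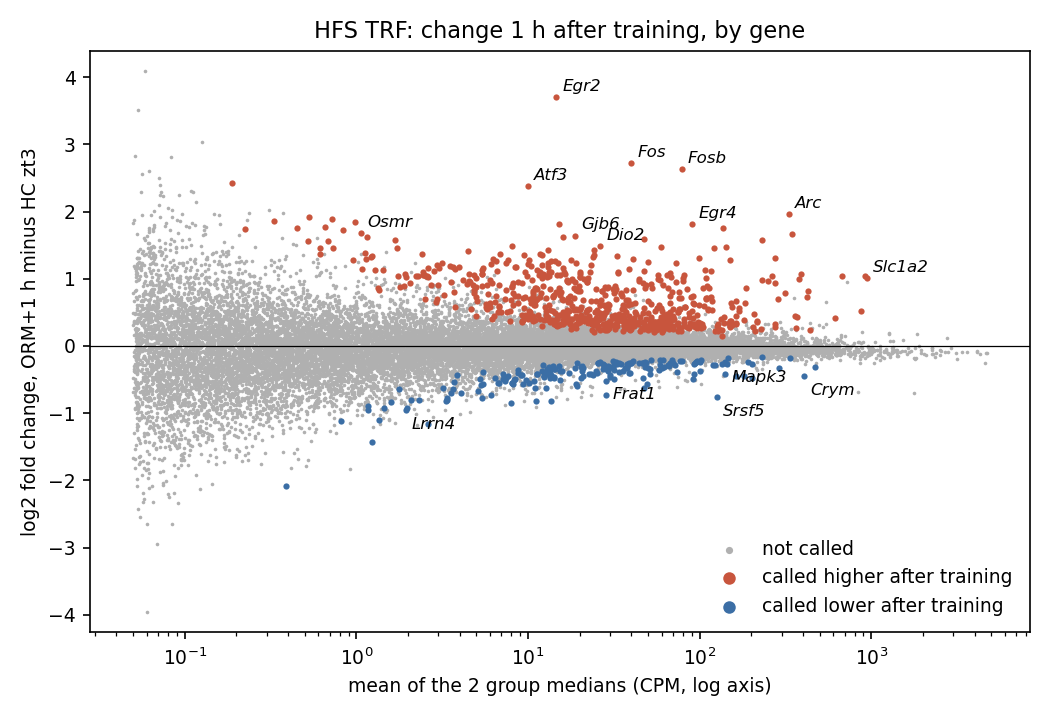
Log2 fold change of each gene at ORM+1 h against HC zt3 in HFS TRF mice (vertical axis), plotted against the mean of both group medians in CPM (log axis), for genes above 0.05 CPM. Genes that rose are red and genes that fell are blue, and the largest increase among the genes labelled is that of Egr2 at 3.70.

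Transcription factors of the immediate early class gave the largest changes. Of 30 listed factors, 23 rose and none fell, where 2.24% of all genes rose, and the median log2 fold change was 1.13. Egr2 (chr10:67371305-67378018, GRCm39), a zinc finger factor, was barely present in the home cage mice, with a lowest, median and highest value of 1.49, 2.21 and 2.68 CPM. After training its values were 20.3, 26.9 and 42.6 CPM, a log2 fold change of 3.70 (SE 0.40, adjusted p = 4.38e-10). The lowest trained mouse was thus well above the highest home cage mouse.

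Fos, a subunit of the AP-1 factor, had values of 8.41, 10.9 and 16.2 CPM in the home cage and 58.8, 68.6 and 111 CPM after training (log2 fold change 2.73, SE 0.33). Its relative Fosb rose from 13.9, 23.3 and 28.5 to 104, 134 and 185 CPM (log2 fold change 2.64, SE 0.29). Neither gene showed any overlap between groups. Atf3, a stress-inducible factor of the same leucine zipper class, went from 2.56, 3.16 and 4.36 to 9.76, 16.8 and 23.1 CPM (log2 fold change 2.37, SE 0.25). Junb, a partner of FOS proteins in AP-1, went from 108, 116 and 148 to 301, 344 and 507 CPM (log2 fold change 1.57, SE 0.15). In both, the highest home cage mouse was below the lowest trained mouse.

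Among other EGR factors, Egr4 was the gene with the smallest adjusted p of the comparison (2.17e-13), with values of 35.9, 41.03 and 43.1 CPM in home cage mice and 120.2, 139 and 177 CPM in trained mice. Egr1, widely used as a marker of neuronal activity, had 153, 163 and 196 CPM and rose to 455, 527 and 664 CPM (log2 fold change 1.67, SE 0.18). Egr3 changed less, from 146, 174 and 202 to 305, 355 and 433 CPM (log2 fold change 1.04, SE 0.11). The trained and home cage mice did not overlap for any of the EGR factors.

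Nr4a1, an orphan nuclear receptor, had 52.7, 64.8 and 77.4 CPM in the home cage and 188, 208 and 269 CPM after training (log2 fold change 1.75, SE 0.22). Npas4, a factor induced by neuronal calcium entry and largely restricted to neurons, had 6.58, 7.62 and 9.78 CPM and rose to 18.6, 22.7 and 46.5 CPM (log2 fold change 1.81, SE 0.31, adjusted p = 6.51e-05). Trained mice were separate from home cage mice in both, although 1 trained mouse stood well above the rest for Npas4. The 7 factors of the list that did not pass were Jund, Fosl1, Cebpd, Cebpb, Ier3, Klf6 and Klf2. Without home cage mice 5 and 6, 21 of the 30 factors passed, all upward, where 2.51% of all genes rose and 0.524% fell.

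The promoters of 4 of these factors are shown because cyclic AMP response elements (CRE), to which CREB binds, are a textbook feature of immediate early genes. They were taken as the factors of smallest adjusted p with a single start in the RefSeq table. Each sequence is the 250 bases before the RefSeq start in GRCm38.p6, read 5′ to 3′ on the minus strand, and capitals mark the CRE core TGACG or its reverse complement CGTCA. The regions are chr6:85513590-85513839 for Egr4, chr8:84978749-84978998 for Junb, chr1:191183334-191183583 for Atf3 and chr7:19310046-19310295 for Fosb.
Egr4: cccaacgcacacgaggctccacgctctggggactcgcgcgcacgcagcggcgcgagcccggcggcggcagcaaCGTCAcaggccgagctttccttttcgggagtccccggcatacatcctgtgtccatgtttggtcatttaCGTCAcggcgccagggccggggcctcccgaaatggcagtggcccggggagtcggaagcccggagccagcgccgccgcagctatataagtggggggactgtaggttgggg
Junb: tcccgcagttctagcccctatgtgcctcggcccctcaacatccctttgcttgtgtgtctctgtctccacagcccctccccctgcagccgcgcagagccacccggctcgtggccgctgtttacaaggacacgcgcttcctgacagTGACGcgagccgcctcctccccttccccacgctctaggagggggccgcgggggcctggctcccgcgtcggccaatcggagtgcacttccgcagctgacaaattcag
Atf3: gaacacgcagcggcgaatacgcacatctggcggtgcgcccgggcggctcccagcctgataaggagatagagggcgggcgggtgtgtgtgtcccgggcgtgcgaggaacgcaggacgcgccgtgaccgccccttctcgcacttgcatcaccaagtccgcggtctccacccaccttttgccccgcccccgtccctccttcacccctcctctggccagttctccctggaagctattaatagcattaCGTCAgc
Fosb: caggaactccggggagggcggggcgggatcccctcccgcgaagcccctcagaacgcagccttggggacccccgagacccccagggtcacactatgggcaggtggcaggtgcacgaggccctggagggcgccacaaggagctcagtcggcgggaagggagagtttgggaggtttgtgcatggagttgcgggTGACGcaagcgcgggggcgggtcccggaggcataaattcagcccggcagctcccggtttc
Counted back from the start, Egr4 carried the core at -177 to -173 and at -109 to -105. Junb had 1 at -106 to -102, Fosb 1 at -60 to -56 and Atf3 1 at -7 to -3. On either strand, the core was found in 71.9% of 32 promoters of the listed immediate early factors, in 28.8% of 690 promoters of the genes that rose, in 32.2% of 171 promoters of the genes that fell and in 22.1% of all 20086 promoters of tested genes. The full element TGACGTCA, which contains the core on both strands, occurred in 3.77% of promoters of rising genes, 1.17% of promoters of falling genes and 2.03% of all promoters. The CArG box, to which SRF binds, was present in 15.6% of the listed factors' promoters and in 1.31% of all. The AP-1 motif TGANTCA was found in 3.04% of the promoters of rising genes and 2.92% of those of falling genes, against 5.42% of all. These shares are a description with no test, and a match in letters is not a binding site.

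Of 33 listed effectors downstream of neuronal activity, 21 rose and none fell, where 2.24% of all genes rose, and the median log2 fold change was 0.69. Arc, whose protein removes AMPA receptors from synapses, went from 104, 143 and 174 CPM in home cage mice to 418, 517 and 761 CPM in trained mice (log2 fold change 1.96, SE 0.20, adjusted p = 1.02e-10). Gadd45b, which takes part in DNA demethylation and stress signalling, went from 22.1, 23.3 and 31.1 to 50.9, 58.01 and 82.1 CPM (log2 fold change 1.29). Trib1, a pseudokinase, went from 11.3, 13.1 and 15.01 to 29.1, 35.3 and 42.02 CPM (log2 fold change 1.42). The ranges of the trained and home cage mice were apart for all 3 genes.

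Homer1 and Bdnf lie outside the rule by which genes were named and were chosen after their values had been seen. Homer1, a postsynaptic scaffold gene with a short activity-induced form, rose from 172, 250.1 and 316 to 379, 512 and 611 CPM (log2 fold change 0.99, SE 0.17), without overlap. Bdnf, the gene of a neurotrophin needed for lasting synaptic change, moved less, from 58.7, 64.9 and 73.02 to 88.3, 99.4 and 105 CPM (log2 fold change 0.58, SE 0.14, adjusted p = 0.00818), again without overlap. Apln, the gene of the peptide ligand apelin, was among the 12 largest increases, with 5.34, 6.99 and 13.003 CPM at rest and 17.8, 24.8 and 30.5 CPM after training (log2 fold change 1.62, SE 0.28). Osmr, the receptor of the cytokine oncostatin M, was expressed at a low level but was separate in all mice, with 0.215, 0.506 and 0.875 CPM before and 1.41, 1.63 and 2.37 CPM after training (log2 fold change 1.68, SE 0.35).

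**Figure D2:**
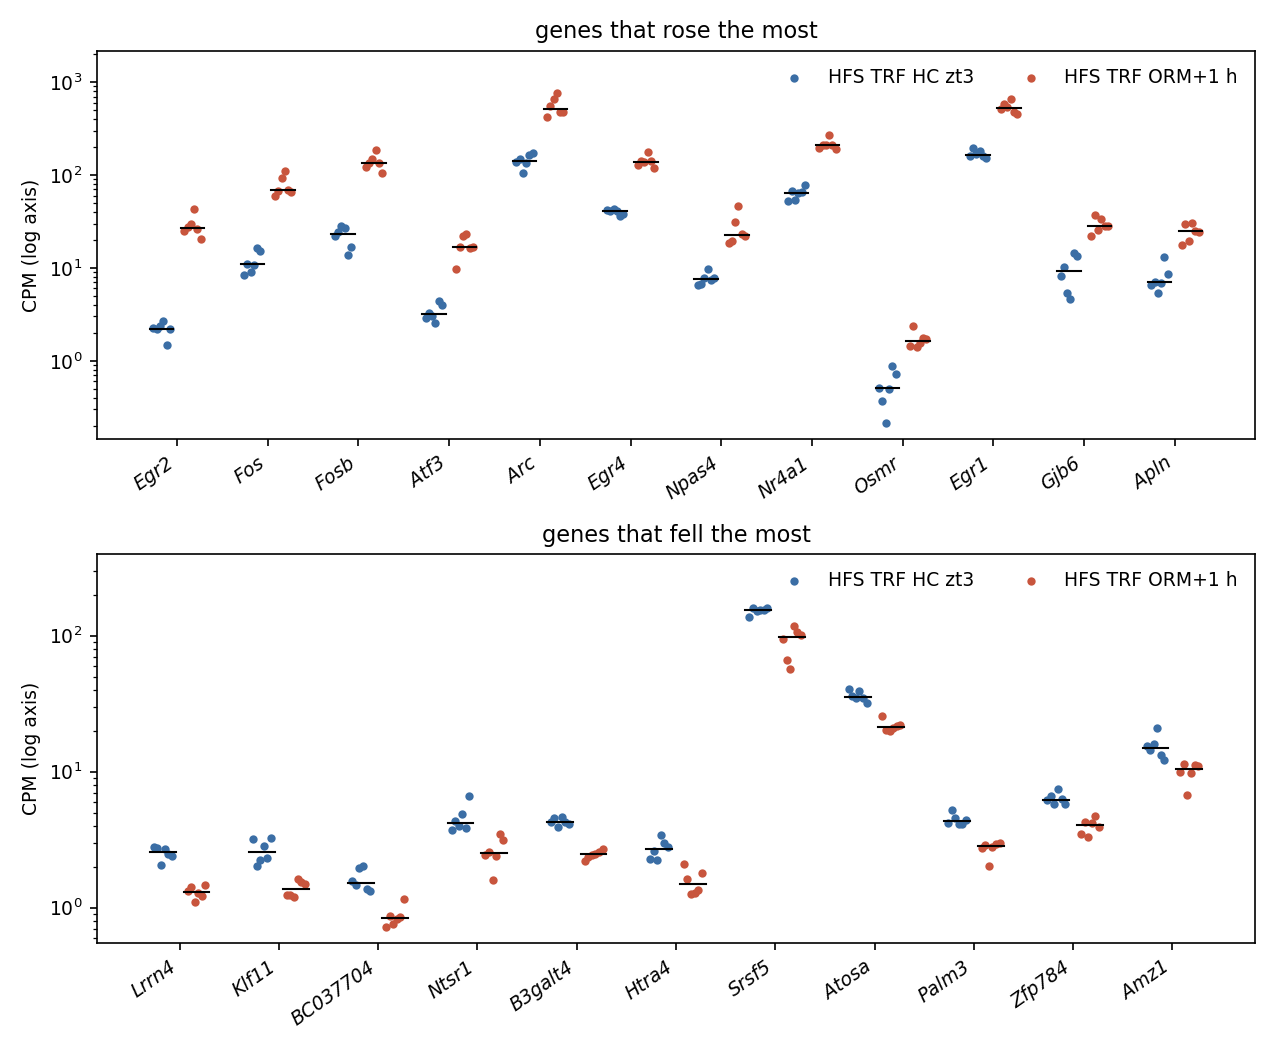
CPM (log axis) in each mouse for the 12 genes that rose most (top) and 11 of the 12 that fell most (bottom) among those without overlap. Points are single mice, HC zt3 in blue and ORM+1 h in red, and bars are medians of 6 mice. Egr2 sat between 1.49 and 2.68 CPM before and between 20.3 and 42.6 CPM after training, while the falling genes shifted by less.

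Inhibitors that shut off the MAPK pathway were also among the early responders. Of 28 members 10 rose and none fell, where 2.24% of all genes rose, and the median was 0.17. Errfi1, which blocks the EGF receptor, went from 48.3, 52.9 and 55.8 to 100.1, 109 and 119 CPM (log2 fold change 1.06, SE 0.09, adjusted p = 1.03e-12). Dusp5 and Dusp6, phosphatases of ERK, had log2 fold changes of 0.99 and 0.86, and Spry4, an inhibitor of receptor tyrosine kinases, of 1.10. No trained mouse overlapped with a home cage mouse for these 4 genes. Mapk3, which encodes the kinase ERK1 itself, fell slightly, from 142, 153 and 159 to 115, 129 and 139 CPM (log2 fold change -0.25, SE 0.06, adjusted p = 0.00786), with every trained mouse below every home cage mouse.

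Genes known to respond to glucocorticoids rose in 9 of 25 cases with none lower (median 0.27), where 2.24% of all genes rose. Of the 4 with the smallest adjusted p, 3 also stand in other lists. Dusp1, a MAPK phosphatase, went from 10.7, 12.6 and 23.1 to 30.4, 34.2 and 44.4 CPM (log2 fold change 1.20), and Tsc22d3, the gene of a glucocorticoid-induced leucine zipper protein, from 42.98, 50.04 and 53.03 to 55.8, 70.8 and 85.3 CPM (log2 fold change 0.52). In both the groups were apart. Of 22 core clock genes 7 rose and none fell, with a median of 0.17. Per1 and Per2, repressors of the clock that light, stress and activity also induce, had log2 fold changes of 1.12 (adjusted p = 6.69e-10) and 0.78 (adjusted p = 1.94e-04). Nfil3, a repressor of clock output genes, went from 11.4, 13.9 and 14.9 to 29.5, 34.3 and 39.999 CPM (log2 fold change 1.36), and Cry1 from 15.3, 17.5 and 19.5 to 20.96, 21.7 and 28.6 CPM (log2 fold change 0.40). Trained and home cage mice did not overlap for these 4 clock genes. The part that a later time of day in trained mice plays in them was not tested.

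Among heat shock and endoplasmic reticulum stress genes, 6 of 30 rose (median 0.34), where 2.24% of all genes rose. Dnajb1, a cochaperone of HSP70, went from 73.1, 78.9 and 81.3 to 108, 140.4 and 203 CPM (log2 fold change 0.90), and Bag3, another cochaperone, from 12.7, 13.9 and 15.3 to 20.9, 25.6 and 33.6 CPM (log2 fold change 0.89). The groups were apart for both genes. Sdf2l1, a chaperone of the endoplasmic reticulum, had 6.03, 9.71 and 11.2 CPM in the home cage and 12.2, 17.7 and 46.3 CPM after training (log2 fold change 1.26, SE 0.34, adjusted p = 0.0242). Sdf2l1 passed in 8 of the 12 models that leave out 1 mouse. Without home cage mice 5 and 6 the list held 3 rising genes, where 2.51% of all genes rose.

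Chromatin and growth factor signalling contributed a few strong single genes. Kdm6b, a demethylase of histone H3 lysine 27, went from 27.2, 30.996 and 34.6 to 53.5, 57.2 and 71.4 CPM (log2 fold change 0.96, adjusted p = 7.69e-10), and Kdm7a, a related demethylase, from 27.9, 33.6 and 38.8 to 51.1, 61.8 and 70.8 CPM (log2 fold change 0.86). Neither overlapped between groups. They were 2 of 5 histone methyltransferase or demethylase genes of 34 that rose (median 0.12), where 2.24% of all genes rose. Irs2, an adaptor of the insulin receptor, went from 121, 137 and 150.3 to 184, 202 and 206 CPM (log2 fold change 0.56, adjusted p = 2.98e-06), without overlap. It was 1 of 4 risers among 38 insulin and IGF signalling genes (median 0.03), which also held Akt2, a kinase below the receptor (log2 fold change 0.40). Ptpn1, a phosphatase of the insulin receptor, was the weakest call of the list (log2 fold change 0.23, adjusted p = 0.0486), and it did not pass when any 1 of the 12 mice was left out.

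In BMP, activin and TGF-beta signalling 7 of 37 genes rose (median 0.12). Inhba, the gene of the activin A subunit, went from 7.22, 7.99 and 12.01 to 13.96, 22.03 and 24.6 CPM (log2 fold change 1.23, SE 0.25). Grem1, a secreted BMP antagonist, went from 2.66, 3.49 and 5.04 to 6.05, 7.34 and 10.4 CPM (log2 fold change 1.13, SE 0.21), and the receptor gene Bmpr1b from 2.01, 4.05 and 5.71 to 7.22, 8.98 and 13.3 CPM (log2 fold change 1.27, SE 0.23). A ligand, an antagonist and a receptor thus all rose without overlap. In the Wnt list, 3 of 59 genes rose and 2 fell. Lgr4, a receptor of R-spondins, had a log2 fold change of 0.58, while Frat1, an inhibitor of GSK3, fell from 30.8, 33.6 and 37.2 to 19.9, 23.4 and 27.1 CPM (log2 fold change -0.52, adjusted p = 1.43e-05). The Notch list held 1 rising gene of 36, Nrarp, a feedback inhibitor (log2 fold change 0.95, adjusted p = 0.0227), which passed in 6 of the 12 models that leave out 1 mouse. The Mediator list held 3 rising and 1 falling of 33. With 2.24% of all genes rising and 0.624% falling, the share of Notch genes that rose was near that of all genes.

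Of 22 astrocyte markers, 18 rose and none fell, where 2.24% of all genes rose. Their median log2 fold change was 1.01, and all 22 estimates were above 0. Gjb6 (chr14:57360757-57371087, GRCm39), which encodes connexin 30 of astrocyte gap junctions, went from 4.59, 9.18 and 14.4 to 21.9, 28.2 and 37.4 CPM (log2 fold change 1.64, SE 0.29, adjusted p = 1.53e-04). Gja1, connexin 43, had 14.9, 28.1 and 56.4 CPM in the home cage and 59.3, 91.6 and 115 CPM after training (log2 fold change 1.48, SE 0.33). The groups were apart in both connexins. Aqp4, the water channel of astrocyte endfeet, had 10.9, 16.5 and 34.9 CPM and 34.4, 49.2 and 62.5 CPM (log2 fold change 1.34, SE 0.29), and here the highest home cage mouse reached the lowest trained mouse.

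Among the 20 genes of glutamate uptake and sensing, 12 rose and none fell (median 0.71), where 2.24% of all genes rose. Slc1a2, the main glutamate transporter of the forebrain, had 449, 588 and 852 CPM in the home cage and 858, 1298 and 1546 CPM after training (log2 fold change 1.01, SE 0.21, adjusted p = 0.00142), just without overlap. Slc1a3, the other astrocytic transporter, had 76.5, 132 and 271 and 230.1, 416 and 481 CPM (log2 fold change 1.32, SE 0.31, adjusted p = 0.00629), and Glul, glutamine synthetase, 413, 505 and 948 and 936, 1345 and 1570 CPM (log2 fold change 1.04, SE 0.22). For these latter genes the groups overlapped by the highest home cage mice. Slc7a11, the cystine and glutamate exchanger, went from 3.35, 4.32 and 7.75 to 9.12, 11.1 and 15.7 CPM (log2 fold change 1.28), and Gpt2, a mitochondrial alanine transaminase that uses glutamate, from 55.5, 69.3 and 75.4 to 105, 109.9 and 124 CPM with the smallest adjusted p of the list (2.34e-08). Both were separate between groups. The sodium pump subunit Atp1b2, of the pump that supplies the gradient for uptake, had a log2 fold change of 0.70. Grm3, a metabotropic glutamate receptor, Grin2c, an NMDA receptor subunit found in astrocytes, and Slc25a18, a mitochondrial glutamate carrier, rose by 1.23, 1.11 and 1.12, each with overlap. Slc25a18 passed in 7 of the 12 models that leave out 1 mouse.

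Secreted and matrix proteins of astrocytes rose in 15 of 27 cases (median 0.71), where 2.24% of all genes rose. Chrdl1, a BMP antagonist that matures synapses, went from 0.445, 0.498 and 0.866 to 1.58, 1.81 and 2.22 CPM (log2 fold change 1.62, SE 0.33), and Htra1, a secreted protease, from 37.1, 51.1 and 67.7 to 70.3, 109 and 119 CPM (log2 fold change 0.97, SE 0.21). All trained mice lay above all home cage mice for both. In the synthesis of cholesterol and fatty acids 11 of 41 genes rose and none fell (median 0.21). Cyp51, an enzyme of cholesterol synthesis that acts on lanosterol, went from 28.5, 30.5 and 36.1 to 42.5, 48.8 and 58.5 CPM (log2 fold change 0.62, adjusted p = 3.09e-05). Msmo1, a later enzyme of that pathway, rose by 0.51 on the log2 scale, and Elovl5, an elongase of unsaturated fatty acids, by 0.96. The groups did not overlap for these 3 enzymes.

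The summed level of the astrocyte markers was 978 to 2537 CPM in home cage mice and 2251 to 3904 CPM in trained mice, so the groups overlapped through home cage mice 5 and 6. Without these mice, 20 of 22 astrocyte markers passed with a median of 1.44. So did 12 of 20 glutamate genes, with a median of 0.77, where 2.51% of all genes rose. This alternative was chosen after the sums had been seen. Mice 5 and 6 had the highest astrocyte sums of the home cage group, so leaving them out raises the astrocyte change by construction. None of 25 neuron markers passed and their median was -0.02, while their summed level was 18160 to 21321 CPM in home cage and 17416 to 19423 CPM in trained mice. That overlap came from home cage mice 5 and 6, since the other 4 had 19960 to 21321 CPM, all above the trained mice. No member passed among markers of myelinating oligodendrocytes (18), oligodendrocyte precursors (12), endothelial cells (22), mural cells and fibroblasts (20) or choroid plexus (23). Of 16 markers of neighbouring brain regions 2 rose and none fell, where 2.24% of all genes rose. The part that differences between mice in cell composition play in the astrocyte result was not tested.

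**Figure D3:**
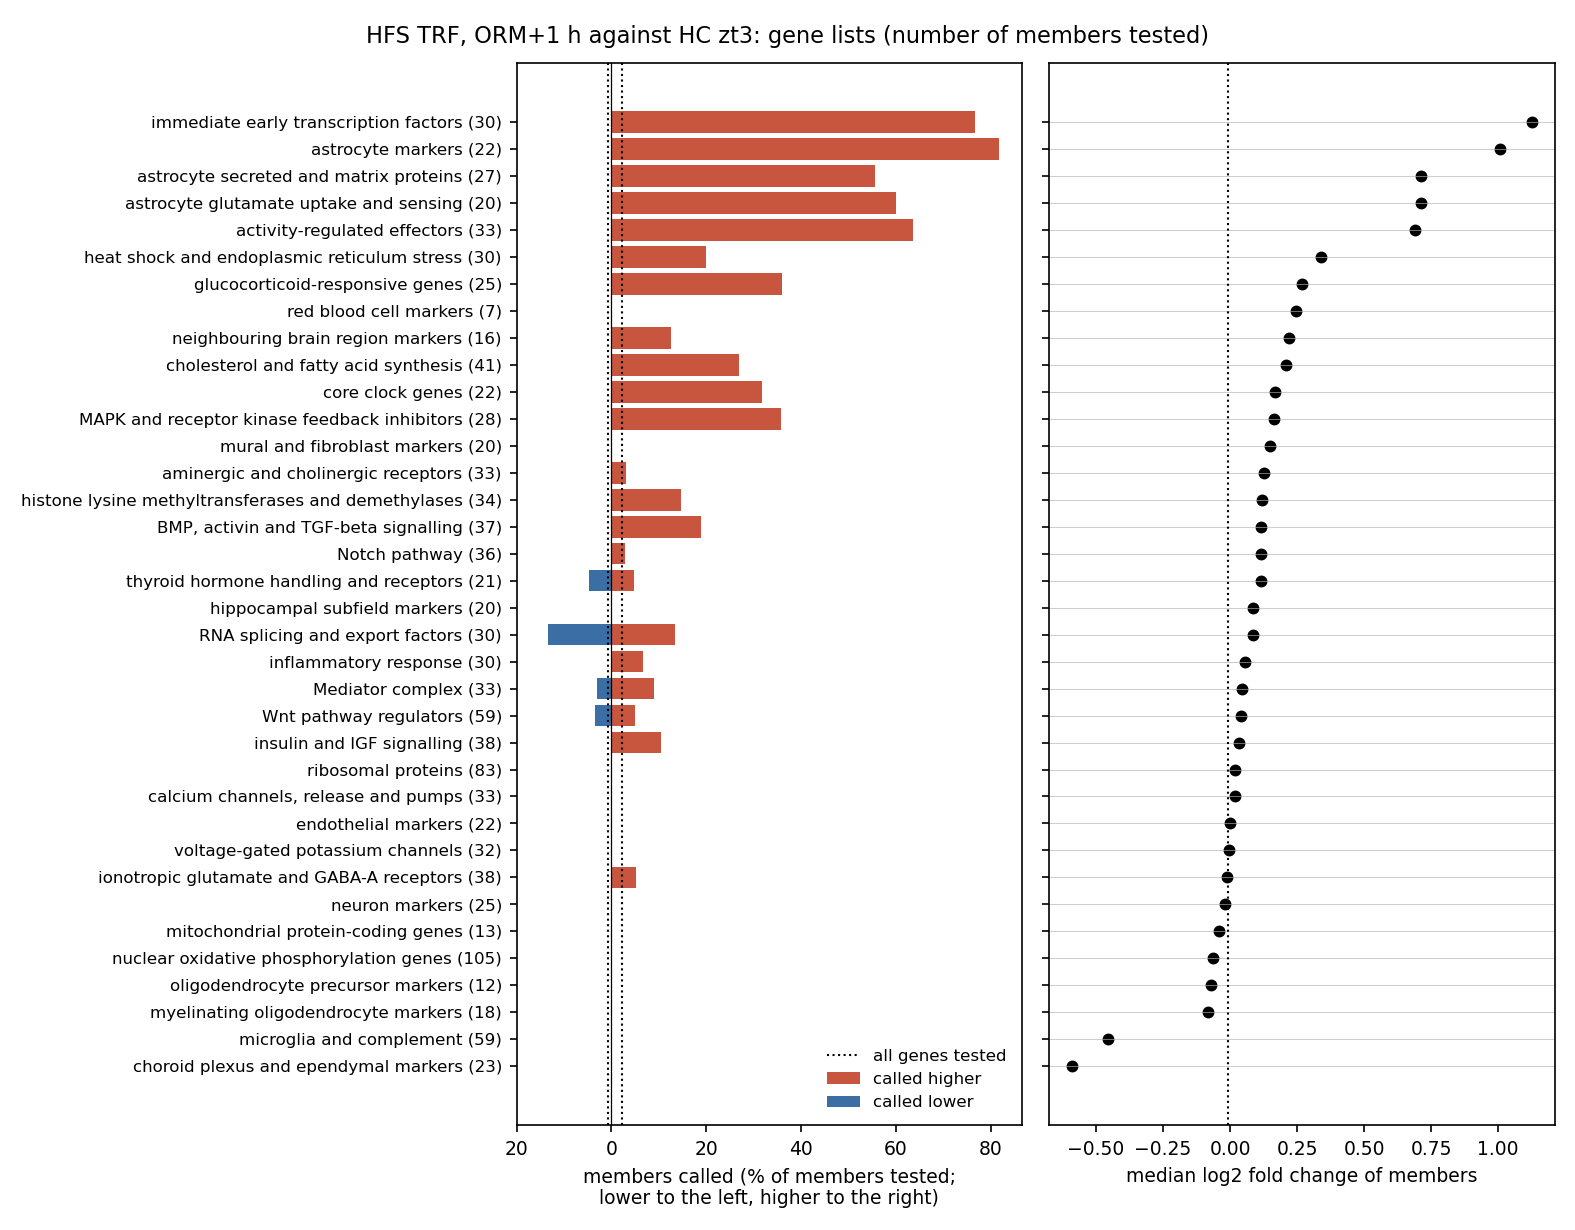
Gene lists in HFS TRF mice at ORM+1 h against HC zt3, with the number of members tested in brackets. The left panel gives the share of members called, with higher to the right and lower to the left, and the right panel the median log2 fold change of the members. Dotted lines mark all genes tested, and immediate early factors (median 1.13) and astrocyte markers (1.01) stand at the top while microglia (-0.45) and choroid plexus (-0.59) stand at the bottom.

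Thyroid hormone handling was represented by 1 riser and 1 faller of 21 genes, where 2.24% of all genes rose and 0.624% fell. Dio2, the deiodinase with which astrocytes make active T3, had 9.63, 11.7 and 24.3 CPM in the home cage and 30.7, 40.99 and 49.8 CPM after training (log2 fold change 1.49, SE 0.24, adjusted p = 2.55e-05). Crym, a cytosolic T3-binding protein, fell from 397, 472 and 503 to 292, 343 and 378 CPM (log2 fold change -0.45, SE 0.11, adjusted p = 0.0109). The groups were apart in both. Dio3, the deiodinase that inactivates T3, had 2.11, 3.09 and 5.09 CPM before and 0.6302, 1.44 and 2.06 CPM after training (log2 fold change -1.18, SE 0.38). Every trained mouse was below every home cage mouse, but the adjusted p of 0.0772 missed the threshold, and the gene passed in 5 of 12 other models and in none of the 12 that leave out 1 mouse. The receptor gene Thra (-0.17, adjusted p = 0.263) and the transporter gene Slco1c1 (0.28) did not pass. Slco1c1 is also expressed in choroid plexus, and with the choroid plexus markers as a covariate Slco1c1 passed with a log2 fold change of 1.16. That model was added after the marker sums had been seen, and Slco1c1 passed in it alone of 12 other models.

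Genes that fell were fewer and changed less. Among the 12 largest decreases without overlap was that of Lrrn4, a leucine-rich repeat membrane protein, with 2.04, 2.57 and 2.77 CPM before and 1.103, 1.298 and 1.46 CPM after training (log2 fold change -0.95, SE 0.23, adjusted p = 0.009003). Klf11, a zinc finger repressor, had 2.03, 2.57 and 3.25 and 1.21, 1.37 and 1.62 CPM (log2 fold change -0.93, SE 0.22). In both, every trained mouse lay below every home cage mouse.

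Ntsr1, a neurotensin receptor, fell from 3.71, 4.17 and 6.59 to 1.59, 2.51 and 3.47 CPM (log2 fold change -0.81, SE 0.24, adjusted p = 0.0393). B3galt4, a glycosyltransferase of ganglioside synthesis, fell from 3.904, 4.29 and 4.62 to 2.199, 2.46 and 2.72 CPM (log2 fold change -0.80, SE 0.16, adjusted p = 8.16e-04). The home cage and trained mice formed separate and, for B3galt4, narrow ranges. Atosa had 31.98, 35.4 and 40.6 CPM in the home cage and 20.04, 21.4 and 25.8 CPM after training (log2 fold change -0.73, SE 0.13, adjusted p = 1.51e-04). Other genes of the 12 largest decreases were BC037704 (-0.90), the protease gene Htra4 (-0.80), Palm3 (-0.70), the zinc finger gene Zfp784 (-0.67) and the metalloprotease gene Amz1 (-0.63). Ntsr1 and BC037704 each passed in 4 and Htra4 in 8 of the 12 models that leave out 1 mouse, and neither Ntsr1 nor Htra4 passed without home cage mice 5 and 6.

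RNA-processing factors moved in both directions, 4 higher and 4 lower of 30 (median 0.08), where 2.24% of all genes rose and 0.624% fell. Srsf5 (chr12:80986436-80997630, GRCm39), a serine and arginine-rich splicing factor, was among the 12 largest decreases, with 136, 154 and 159 CPM in the home cage and 56.9, 97.7 and 117 CPM after training (log2 fold change -0.76, SE 0.15, adjusted p = 5.91e-04). Clk1, the kinase that phosphorylates such factors, rose from 9.34, 10.6 and 13.5 to 19.3, 19.6 and 21.97 CPM (log2 fold change 0.86, SE 0.14, adjusted p = 1.47e-05). A splicing factor and its kinase thus moved in opposite directions, each without overlap. Rbm3 and Cirbp, RNA-binding proteins induced by cold, fell by 0.62 and 0.57 on the log2 scale (adjusted p = 0.0282 and 0.0164). Rbm3 passed in 6 of the 12 models that leave out 1 mouse. Without home cage mice 5 and 6 the adjusted p of Rbm3 and Cirbp was 0.203 and 0.304. The list then held 1 riser and 1 faller, where 2.51% of all genes rose and 0.524% fell.

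Microglial genes leaned downward without a single call in the reported model. Of 59 members of the microglia and complement list, 51 had a negative estimate, and the median log2 fold change was -0.45, against -0.01 over all genes tested. An unadjusted p under 0.05 was reached by 11, all negative, where 6.30% of all genes tested were lower at that level. The trained mice were all below the home cage mice for 12 of the 59, a separation seen in 1.38% of all genes tested. Members outside the naming rule are given here after their values had been seen. Spi1, which encodes PU.1, the factor that defines the macrophage lineage, had 2.35, 2.53 and 3.01 CPM in the home cage and 0.995, 1.28 and 1.97 CPM after training (log2 fold change -0.86, SE 0.31, adjusted p = 0.138, the smallest of the list). Inpp5d, a lipid phosphatase of blood-derived and microglial cells, had 4.62, 5.12 and 6.06 and 2.79, 3.43 and 4.03 CPM (log2 fold change -0.63, SE 0.24, adjusted p = 0.184). Neither gene overlapped between the groups.

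Cx3cr1, the fractalkine receptor, had 8.59, 9.78 and 10.8 CPM in home cage and 5.26, 6.27 and 8.79 CPM in trained mice (log2 fold change -0.56, SE 0.28). For Csf1r, the receptor on which microglial survival depends, the values were 19.9, 21.4 and 23.6 and 14.1, 15.1 and 20.1 CPM (log2 fold change -0.45, SE 0.26). C1qa, a chain of complement C1q, had 10.6, 11.96 and 13.1 and 7.204, 8.61 and 9.72 CPM (log2 fold change -0.48, SE 0.27). Cx3cr1 and Csf1r overlapped between groups by the highest trained mouse, and C1qa did not overlap. Not all members shared the direction: 8 had a positive estimate, among them the perivascular macrophage marker Mrc1 with a log2 fold change of 0.40, and none of these was called.

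Whether microglial genes passed depended on which mice set the spread. The 71-mouse model contains 1 HFS ad lib home cage mouse at zt15 whose summed microglial level was 1480 CPM, against 176 to 390 CPM in the other 70 mice, and it was the highest of all mice for 56 of the 59 genes. Without this mouse, a model added after this was seen, the log2 fold change of Spi1 was still -0.86, but its SE went from 0.31 to 0.22 and its adjusted p to 0.0118, and 4 of 59 members passed, where 0.670% of all genes fell. With the 36 mice of the first experiment, 15 members passed and 1.43% of all genes fell, and the SE of Spi1 was 0.16. With only the 12 mice compared, 21 members passed and 1.36% of all genes fell. None passed in DESeq2 on all mice, where 1.14% of all genes fell and the smallest adjusted p in the list was 0.0629. None passed without home cage mice 5 and 6, where 0.524% of all genes fell. That model still held the outlying mouse, with which the reported model had no call either. It therefore cannot show whether the microglial result rests on mice 5 and 6. Summed over the list, home cage mice had 264 to 308 CPM and trained mice 214 to 241 CPM, without overlap and with mice 5 and 6 at the top of the home cage group.

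**Figure D4:**
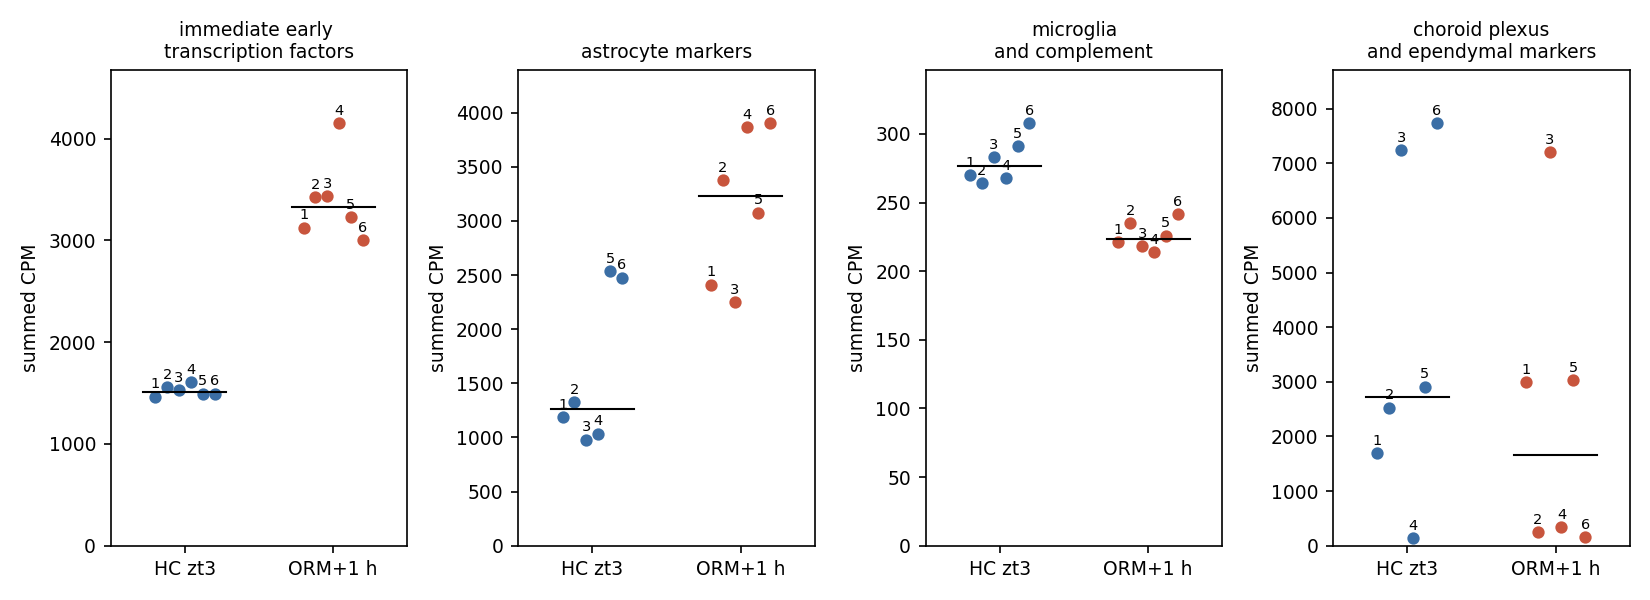
Summed CPM per mouse (vertical axes start at 0) over immediate early transcription factors, astrocyte markers, microglia and complement genes, and choroid plexus and ependymal markers. Each point is 1 mouse with its replicate number, and bars are medians of 6 mice. Home cage mice 5 and 6 lie among the trained mice for astrocyte markers, and choroid plexus sums range from 136 to 7736 CPM within the home cage group.

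The same training comparison on other diets gives the background for time-restricted mice. Among HFS ad lib mice, which had the same food without restriction, the immediate early list held 20 rising genes of 30 with a median of 0.84, where 0.740% of all genes rose. Among normal chow (NC) ad lib mice it held 21 with a median of 1.03, where 4.03% of all genes rose. The median over the genes that rose in HFS TRF mice was 0.38 under HFS ad lib feeding and 0.60 under NC ad lib feeding, and over those that fell it was -0.28 and -0.34. Those genes were selected in HFS TRF mice, and that choice alone can place their medians in the other diets nearer to 0. Astrocyte markers passed in 1 of 22 cases in HFS ad lib mice (median 0.57) and in 22 of 22 in NC ad lib mice (median 1.43), against 18 (median 1.01) in HFS TRF mice. The summed astrocyte markers of the home cage mice themselves ranged from 970 to 3703 CPM under HFS ad lib and from 1209 to 1944 CPM under NC ad lib feeding, against 978 to 2537 CPM under TRF. The microglial median was -0.08 on HFS ad lib and -0.23 on NC ad lib, against -0.45 with TRF.

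Differences between lists were not tested, and for single genes no difference between diets passed. For the training change in HFS TRF minus that in HFS ad lib mice, no gene passed and the smallest adjusted p was 0.75, while edgeR gave 1685 genes and DESeq2 780 with an unadjusted p below 0.05, and DESeq2 called none either. For HFS TRF minus NC ad lib mice, the smallest adjusted p was 0.883, while edgeR gave 1578 and DESeq2 715 genes at that unadjusted level, again with none called. Among all genes tested, 0% were thus called in either test of diets. Of single genes, Zfp784 had a log2 fold change of -0.67 with TRF and -0.05 with HFS ad lib feeding, and Nav1, a neuron navigator gene, 0.29 and -0.18. They were among the genes of smallest p in the first test, both at an adjusted p of 0.75. Klf10, a TGF-beta-induced zinc finger factor, had 0.49 with TRF and -0.07 with NC ad lib feeding. Its difference of 0.56 had an adjusted p of 0.883. Klf10 became the 1 gene called (adjusted p = 0.0347) when HC zt3 mice 5 and 6 were left out in each diet.

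The early response was compared with that at 12 h after training (ORM+12 h), when 6 mice were set against 5 home cage mice at zt15. This second experiment used other mice, so experiment, time of day and delay cannot be told apart. The difference between the changes at +12 h and at +1 h passed for 1364 genes (4.53%), 554 positive (1.84%) and 810 negative (2.69%). Of the genes that rose at +1 h, 436 of 676 (64.5%) were among them, and of those that fell 99 of 188 (52.7%), each with the opposite sign. The sign and these shares follow in part from the construction, since the +1 h mice and their home cage group enter both the choice of genes and the difference. At +12 h itself, 1 of the genes that had risen at +1 h was higher and 17 were lower, and of the genes that had fallen 8 were higher and none lower, where 1.57% of all genes tested were higher and 0.889% lower.

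Arc changed by 1.96 at +1 h and -0.37 at +12 h, a difference of -2.33 (SE 0.28, adjusted p = 3.77e-08). Egr2 changed by 3.70 and -0.78, a difference of -4.49 (SE 0.55, adjusted p = 3.77e-08). Sertad1, a transcriptional coregulator, was higher at +1 h (1.08) and lower at +12 h (-0.46, adjusted p = 0.0236). Dio3, not called at either time, went from -1.18 to 1.31, and the difference of 2.49 (SE 0.56) passed at an adjusted p of 0.00446. Mapk3 fell at +1 h (-0.25) and rose at +12 h (0.25, adjusted p = 0.0254). In the immediate early list the difference passed in 19 of 30 genes, all negative, and the median change at +12 h was -0.21 with none called. For astrocyte markers the difference passed in 19 of 22 genes, all negative, with a median of -1.38. Their median at +12 h itself was -0.37 with none called. Among all genes tested, 2.69% passed with a negative difference. Microglial genes had a median of 0.28 at +12 h, and none of the 59 differences passed, although their median was 0.73.

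**Figure D5:**
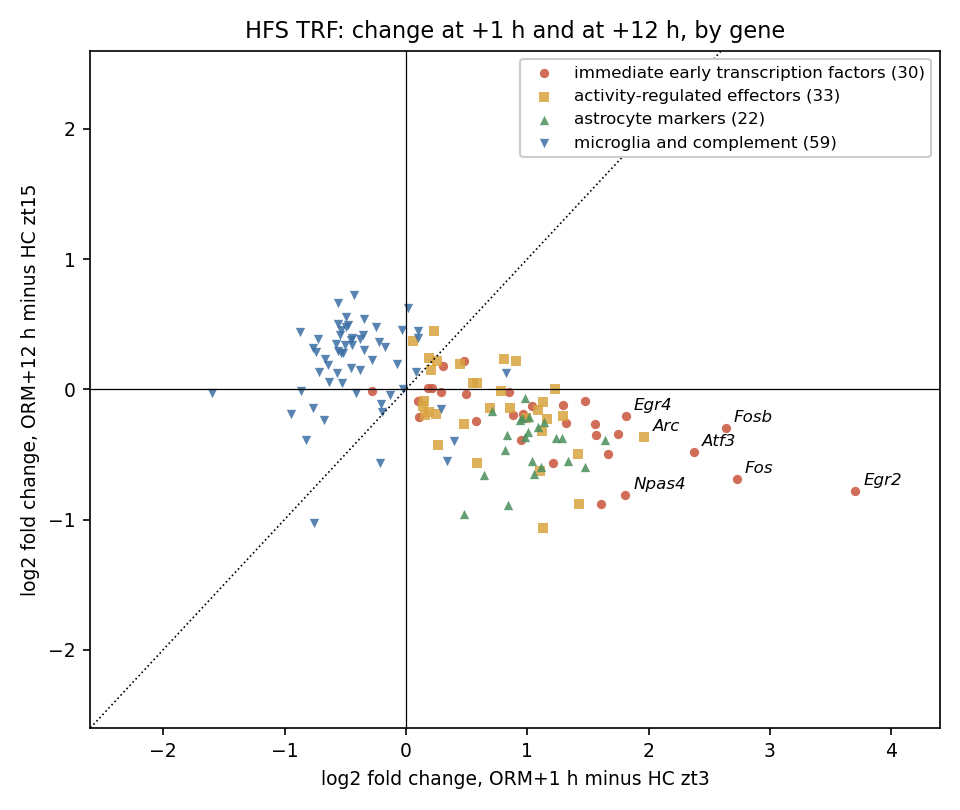
Log2 fold change after training in HFS TRF mice at +1 h against HC zt3 (horizontal axis) and at +12 h against HC zt15 (vertical axis), for members of 4 gene lists, with the number of members in brackets. The dotted line marks equal change at both times. Immediate early and astrocyte genes lie to the right near or below 0 on the vertical axis, and most microglial genes lie in the upper left, with medians of -0.45 and 0.28.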

How the data were processed

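RNA bound to phosphorylated ribosomes (pS6-TRAP) of the hippocampus was sequenced per mouse, for 6 home cage mice (HC zt3) and 6 trained mice (ORM+1 h) under HFS TRF. Sample titles of the HFS TRF mice also carry the words ad libitum, and the group was taken from the description, which the diet label matches. The authors trimmed paired-end reads with Trim Galore 0.6.7 and cutadapt 3.4, aligned them to GRCm39 with HISAT2 2.2.0 and assigned reads mapped to 1 place to genes with featureCounts of Subread 2.0.3. The submitters' processing notes also list mm9. The strand setting of the counting is not given in the sources used here, so overlapping antisense genes may share reads. The deposited values are raw counts per gene, not normalized, of 57010 genes in 71 mice, of which 56310 genes matched a GRCm39 annotation.

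The quasi-likelihood test of edgeR 4.0.16 (R 4.3.3, TMM scaling) was run in 1 model of 12 groups over 30141 genes, each with a total of at least 10 counts, with Benjamini-Hochberg adjustment and a threshold of 0.05. Differences between diets and times were interaction terms of that model. CPM values use TMM-scaled library sizes. Lists of genes were described by counts and medians, with no test. Alternatives were the Wald test and size factors of DESeq2 1.42.0, other filters, protein-coding genes alone, fewer mice in the model, a replicate block and each mouse left out in turn. When 1 mouse was left out, scaling was recomputed and the dispersion of the full fit was kept. The script was tested on simulated counts. Promoters were read from a RefSeq table of GRCm38.p6 and searched for motifs on both strands.

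Members and gene lists were chosen with earlier results of these data known. Genes named are the 12 largest increases and decreases among called genes with a mean of at least 1 CPM, no overlap between groups and no predicted symbol, the 4 called members of smallest adjusted p in each list (2 of highest CPM where none was called), genes the study discusses in glutamate and thyroid hormone handling, and the 3 of smallest p on each side of each interaction. Some genes that this rule names are not reported here. Other genes are said to be outside this rule or were given as list members. P-values rest on the spread between mice within the 12 groups of the model, so mice outside the comparison enter it too. Whether mice of a group shared a cage is not given in the sources used here. Totals were 47333105 to 62758570 counts per mouse, so spread between mice and not counting limits all but the lowest genes.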

Additional observations from a re-analysis of the deposited data

Results flagged for a closer look

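Within each group of 6, the gap of an extreme mouse to its nearest neighbour was divided by the range of the group, and values above Dixon's critical value for 6 samples are listed. Of 322 groups examined 14 passed, fewer than the 1 in 20 that chance alone gives. In home cage mice, mouse 1 was low for Srsf5 (0.756), mouse 5 for Egr2 (0.653) and for the summed Wnt list (0.684), mouse 4 for Ttr (0.651), mouse 6 for Rgs5 (0.653) and mouse 3 for the summed oligodendrocyte precursor markers (0.686). In trained mice, mouse 4 was high for Nr4a1 (0.656) and for the summed glucocorticoid-responsive genes (0.633), and mouse 5 was low for Med7 (0.670). Trained mouse 3 was low for Palm3 (0.799) and Amz1 (0.694) and high for Ptpn1 (0.694), Cry1 (0.663) and the summed markers of neighbouring brain regions (0.649).

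The change after training differed between +12 h and +1 h, tested as an interaction term in edgeR with Benjamini-Hochberg adjustment, for 1364 genes. The 3 genes of smallest p on each side were Egr4 (-2.02 on the log2 scale), Errfi1 (-1.25) and Sertad1 (-1.53), and Frat1 (0.77), Prox1os (1.07) and Mapk3 (0.50). The times come from separate experiments with other mice, so experiment, time of day and delay cannot be told apart.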

How the results depend on the processing

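The 864 calls became 1354 with DESeq2, 1521 with only the groups compared, 1474 with the 36 mice of the first experiment and 525 to 846 when 1 mouse was left out. The lowest counts were 525 without home cage mouse 3, 550 without home cage mouse 4 and 559 without trained mouse 2. Models that leave out 1 mouse kept the dispersion of the full fit, while the others estimated it anew, so their counts are not alike. Same-numbered mice of both groups deviated together in only some pairs (correlations of -0.04, 0.07, 0.62, 0.46, -0.03 and -0.35). The sources used here do not say that a number marks a shared litter or day, and these correlations cannot exclude it. The main model had no block. The replicate block gave 944 calls with all mice and 1934 with only the groups compared. The share of calls that were higher was 78.2%, and 70.8% to 87.2% across alternatives.

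Microglial members called, all lower, were 21 with only the groups compared, where 1.36% of all genes fell. They were 23 with the replicate block in these, where 1.74% fell. With 36 mice they were 15, where 1.43% fell, and without the outlying mouse 4, where 0.670% fell. For the training change in HFS TRF minus NC ad lib mice, 1 gene passed when HC zt3 mice 5 and 6 were left out in each diet. Of 93 named genes called, none changed sign and 16 lost the call under at least 1 alternative. Of 32 named genes not called, 10 passed under at least 1.

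Sign changes concerned 11 uncalled genes near 0. Without home cage mice 5 and 6 these were Mbp (0.0074), Atp2a2 (-0.0088), Tnr (-0.040), Rgs5 (-0.025), Kcnc1 (-0.046), Atp2b1 (-0.033), Rgs10 (0.010) and Rpl8 (0.028). With the choroid plexus covariate it was Atp2b1 (-0.0010). Rpl8 had 0.0049 with at least 1 count in total, 0.0019 with only the groups compared and 0.0016 with the replicate block in these. Leaving out 1 mouse gave -0.0011 to 0.086 for Tnr, -0.057 to 0.23 for Hbb-bs, -0.029 to 0.12 for Olig1, -0.055 to 0.10 for Rgs5, -0.0077 to 0.065 for Kcnc1, -0.015 to 0.073 for Atp2b1, -0.041 to 0.010 for Rgs10, -0.16 to 0.049 for mt-Co1 and -0.036 to 0.016 for Rpl8. The causes of these shifts were not tested. At 5 or 6 mice a group, small differences between diets may be missed.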
